A study of Homo sapiens with 16 samples.

Results

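The cytosolic ribosomal protein genes were taken from the deposited count table by their symbols: RPL or RPS, then digits, then optionally A, X or L, together with RPLP0, RPLP1, RPLP2 and RPSA. Pseudogenes, Y-linked copies and the RPS6K kinases were left out. The rule gave 81 of 35993 genes, of which 32 encode proteins of the small subunit and 49 proteins of the large subunit. RNA came from the bladder cancer cell lines TCCSUP, RT112, J82 and 253J, all 4 established human lines labelled wild type, after 48 h with CM-1758 at the IC50 of each cell line or with 0.01% DMSO as vehicle control. CM-1758 is an inhibitor of histone deacetylases, the enzymes that take acetyl groups off histones. There were 8 groups of 2 libraries, 16 in all, made from total RNA depleted of ribosomal RNA and described as independent biological replicates. TCCSUP was grown in another medium (EMEM) than the other cell lines (DMEM), so that medium and cell line cannot be told apart in that line. Total counts ran from 22506431 to 32537104 per library.

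Of 10 markers of epithelium and urothelium, 9 were above 1 CPM (counts scaled to a common library total) in the controls of RT112, 7 in TCCSUP, 6 in J82 and 5 in 253J. KRT8 was counted at 174 to 3030 CPM and KRT18 at 855 to 2327 CPM in the controls of the 4 cell lines, whereas KRT5 was at 0 and GATA3 below 1 CPM in 253J and J82, UPK2 was at 0 outside RT112 and UPK3A, like UPK2 a protein of the mature urothelial surface, had 0 counts in every control library. The 10 markers summed to 1233 to 1365 CPM in TCCSUP control against 379 to 473 CPM with CM-1758, and to 3180.1 to 4332 against 1852 to 2343 CPM in 253J, while the ranges overlapped in J82 and were 6559 to 6723.5 against 5605 to 6437 CPM in RT112. Their part in the results was not tested. CPM here and below use library totals scaled by TMM (trimmed mean of M values), a method that sets most genes to no change. Of 8 markers of leukocytes, endothelium and muscle, summed, the control libraries held 0.362 to 21.7 CPM and the treated libraries 6.34 to 22.9 CPM. Within a line the sums were 0.362 to 0.69 CPM in control against 6.34 to 6.82 with CM-1758 in 253J. They were 4.11 to 5.77 against 11.9 to 13.8 in J82 and 2.81 to 3.22 against 9.84 to 12.4 in RT112. TCCSUP had 21.69 to 21.71 against 22.5 to 22.9 CPM. The part of these markers in the results was not tested.

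Ribosomal proteins are assembled with the ribosomal RNAs in the nucleolus into the small subunit, which decodes the messenger RNA, and the large subunit, which joins amino acids. Their genes are spread over the genome and are transcribed by RNA polymerase II, and many of their introns hold small nucleolar RNAs, the guides for modification of ribosomal RNA. Their messenger RNAs typically begin with a C followed by a run of C and T, the 5′ terminal oligopyrimidine (TOP) tract, through which mTOR and LARP1 set their translation. A few members have paralogs whose symbols end in L, some of which are expressed mainly in striated muscle or testis.

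The start of the transcript is a feature that the name rule did not use. Start sites were found for 64 of the 81 members in RefSeq's table for GRCh38.p14, which is not the build named for the counts and was used for these sequences only. A C followed by at least 4 further C or T, beginning within 5 bases of an annotated start on the transcribed strand, was present in 53 of the 64 (82.8%), compared with 25.2% of 27305 genes of the same table. Such a tract began exactly at the annotated start in 46 members (71.9%), compared with 5.14% of all genes. The windows below, from 10 bases before to 20 bases from the start, are those of the members that the results turn on, with the tract in capitals, and the start with the longest tract is shown where a gene has several:
RPL10 (chrX:154398367-154398396, plus strand): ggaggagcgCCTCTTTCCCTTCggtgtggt
RPSA (chr3:39406710-39406739, plus strand): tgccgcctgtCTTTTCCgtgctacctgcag
RPLP1 (chr15:69452808-69452837, plus strand): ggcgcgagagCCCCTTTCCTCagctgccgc
RPS23 (chr5:82278335-82278364, minus strand): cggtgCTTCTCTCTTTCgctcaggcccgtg
RPL39 (chrX:119791611-119791640, minus strand): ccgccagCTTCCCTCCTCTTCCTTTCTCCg
RPS28 (chr19:8321486-8321515, plus strand): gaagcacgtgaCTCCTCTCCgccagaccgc
RPL38 (chr17:74203668-74203697, plus strand): aagtctcgttCTTTTTCgtccttttccccg
RPL11 (chr1:23691796-23691825, plus strand): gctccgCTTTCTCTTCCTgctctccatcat
RPS4X (chrX:72277229-72277258, minus strand): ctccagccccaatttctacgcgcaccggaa
RPS27L (chr15:63157458-63157487, minus strand): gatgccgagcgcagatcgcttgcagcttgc
RPL10L (chr14:46651762-46651791, minus strand): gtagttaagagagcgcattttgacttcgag

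In RT112 the most lowered members were RPL39, RPSA, RPLP1, RPS23 and RPL10, and all had a tract. So did RPS28, RPL38 and RPL11, which were higher in 1 or 2 cell lines. No tract was found for RPL6, called lower in J82 and RT112, or for RPS29, called lower in 253J and RT112. RPS4X, which was lowered in 3 cell lines, and the paralogs RPS27L and RPL10L had none in this window. In RT112, the cell line with the most members lowered, 34 of 53 members with a tract were called lower with CM-1758, with a median log2 fold change of -0.62, and 6 of 11 without, with a median of -0.54, while 20.2% of all genes were called lower. Of the 16 tested members absent from the table of starts, 6 were lower, with a median of -0.47. In TCCSUP, where 22.1% of all genes were called lower, the order of the medians was the other way, with 0.047 for members with a tract and -0.15 for those without, and 3 of 53 and 1 of 11 were lower. No test of these splits was made.

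Members made up between 1.70% and 4.25% of all counts in a library. In 253J they made up 3.68% and 3.33% of the control libraries and 4.25% and 3.52% of the treated ones (3.51 ± 0.244 and 3.88 ± 0.514%, mean ± SD, n = 2 each), so the groups overlapped. J82 had the widest spread between replicates, with 2.25% and 3.25% in control and 2.13% and 2.87% with CM-1758 (2.75 ± 0.701 and 2.50 ± 0.522%). RT112 had 2.70% and 2.40% in control against 2.00% and 1.70% (2.55 ± 0.208 and 1.85 ± 0.212%), and both treated libraries were below both control libraries. TCCSUP went the other way, with 1.83% and 2.16% in control against 2.57% and 2.50% (2.00 ± 0.237 and 2.54 ± 0.0499%). With 2 libraries against 2, a two-sided exact permutation test cannot go below p = 0.333. Abundant small noncoding RNAs (7 genes) held 9.58 to 21.3% of all counts, and without them the shares were 2.86 ± 0.283 and 2.08 ± 0.253% in RT112 and 2.27 ± 0.264 and 3.18 ± 0.00462% in TCCSUP. As shares of a library, the values do not tell less RNA of the members per cell from more of other RNA.

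**Figure D1:**
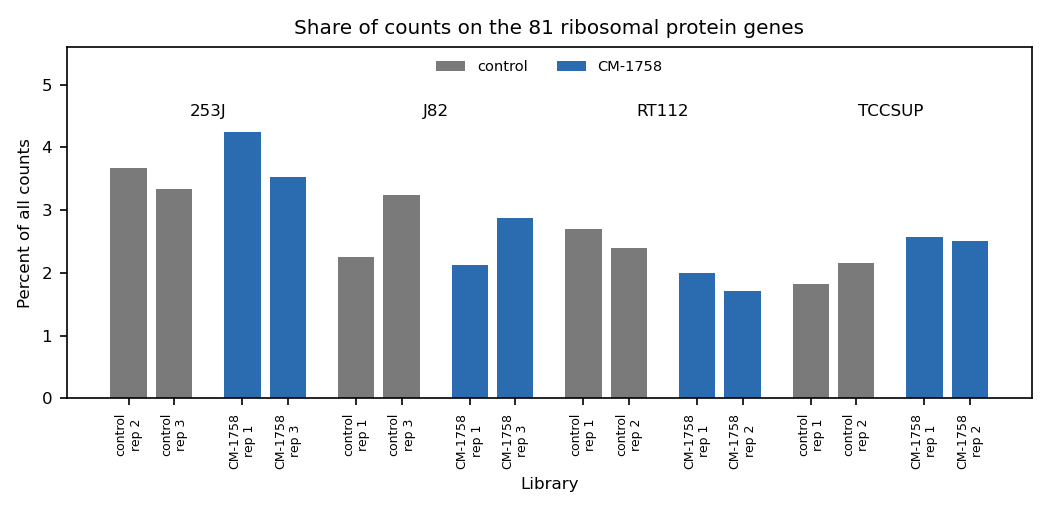
Share of all counts on the 81 members (vertical axis, percent, from 0) in each of the 16 libraries, control in grey and CM-1758 in blue. The share is lower in both treated RT112 libraries (2.00 and 1.70%) than in their controls and higher in both treated TCCSUP libraries (2.57 and 2.50%), while in 253J and J82 the groups overlap.

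Members shifted together between replicates of the same group, a spread that bears on every result below. In J82 control, replicate 3 was higher than replicate 1 in 77 of 78 members, by a mean of 0.54 on the log2 scale, and in treated J82 in 76 of 78, by 0.46. Treated 253J replicate 3 was lower than replicate 1 in all 78 members, by a mean of -0.31, and in 253J control replicate 3 was higher than replicate 2 in 3 of 78 (-0.18). In RT112 replicate 2 was higher than replicate 1 in 0 of 78 members in control (-0.20) and in 4 of 78 with CM-1758 (-0.23). In TCCSUP control replicate 2 was higher in all 78 (0.24), and in treated TCCSUP in 14 of 78 (-0.06). The 78 leave out RPL3L, RPL10L and RPL39L, which had few counts. Other short protein-coding genes moved in the same direction between the replicates of each group but less. These were 824 genes with a coding length of at most 600 bases and a mean of at least 20 CPM. Their median difference was 0.35 and 0.28 in J82, -0.10 and -0.14 in 253J, -0.08 and -0.14 in RT112, and 0.07 and -0.05 in TCCSUP, control first. The part of transcript length in the shifts was not tested.

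Each cell line was then compared with its own controls. Of the 81 members, 80 passed the filter on low counts and were tested. RPL39L was not, with 4 counts in treated 253J replicate 3 and 0 in every other library. A gene was called at an adjusted p under 0.05 (edgeR, Benjamini-Hochberg over all 21297 genes tested). In RT112, 46 members were lower and 1 was higher, compared with 20.2% and 27.4% of all genes tested, and the median log2 fold change was -0.56 over the members and 0.12 over all genes. In J82, 15 were lower and 1 higher (all genes 18.5% and 24%; medians -0.22 and 0.047). In 253J, 11 were lower and 4 higher (all genes 22.4% and 28.8%; medians -0.11 and 0.10). In TCCSUP, 5 were lower and 11 higher (all genes 22.1% and 32%; medians 0.054 and 0.20). The share of members lowered was 57.5% in RT112, 18.75% in J82, 13.75% in 253J and 6.25% in TCCSUP, so that it stood far above the share of all genes in RT112, close to it in J82 and below it in 253J and TCCSUP. The share of members raised was below that of all genes in each line. The 1 higher in RT112 and in J82, and 1 of the 4 in 253J, was RPL3L, and 1 of the 11 in TCCSUP was RPL10L. Both passed the filter on low counts only through treated libraries where they were high, so these calls are no independent support for a rise. Of the 824 short genes described above, 319 were lower in RT112, 190 in J82, 201 in 253J and 324 in TCCSUP. Higher were 144, 192, 330 and 157 of them, and their medians were -0.26, 0.017, 0.25 and -0.25, in that order. The part of transcript length in these changes was not tested.

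In 253J, J82 and TCCSUP more members than genes at large stayed near no change, while in RT112 the shares were close. A log2 fold change within 0.5 either way was found for 62, 60, 32 and 61 of 80 members in 253J, J82, RT112 and TCCSUP, that is 77.5%, 75%, 40% and 76.25%, compared with 34.5%, 42.1%, 38.0% and 34.2% of all genes. At the study's threshold, a log2 fold change beyond 2 with an adjusted p under 0.01, 0 members were lower in any line, and 1 was higher in each, namely RPL3L in 253J, J82 and RT112 and RPL10L in TCCSUP (all genes 9.43%, 8.81%, 11.4% and 14.2% higher and 3.5%, 1.24%, 1.39% and 3.31% lower). Both of these genes passed the filter on low counts through treated libraries only.

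The level at which members as a group stand depends on the scaling. With total counts in place of TMM, every log2 fold change is raised by 0.27 in 253J, 0.31 in TCCSUP and 0.15 in both J82 and RT112, and the median over the members turns from -0.11 to 0.17 in 253J while it stays below 0 in J82 (-0.074) and RT112 (-0.41) and rises to 0.37 in TCCSUP. Called in the same direction with TMM, with the RLE method of DESeq2 and with total counts were 33 members lower and 1 higher in RT112, 7 and 1 in J82, 5 and 4 in 253J, and 2 and 11 in TCCSUP. The same was true of 16%, 14.3%, 16.8% and 14.7% of all genes in the lower direction and of 27.4%, 24%, 28.8% and 32% in the higher direction. The members counted as higher include RPL3L in RT112, J82 and 253J and RPL10L in TCCSUP.

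**Figure D2:**
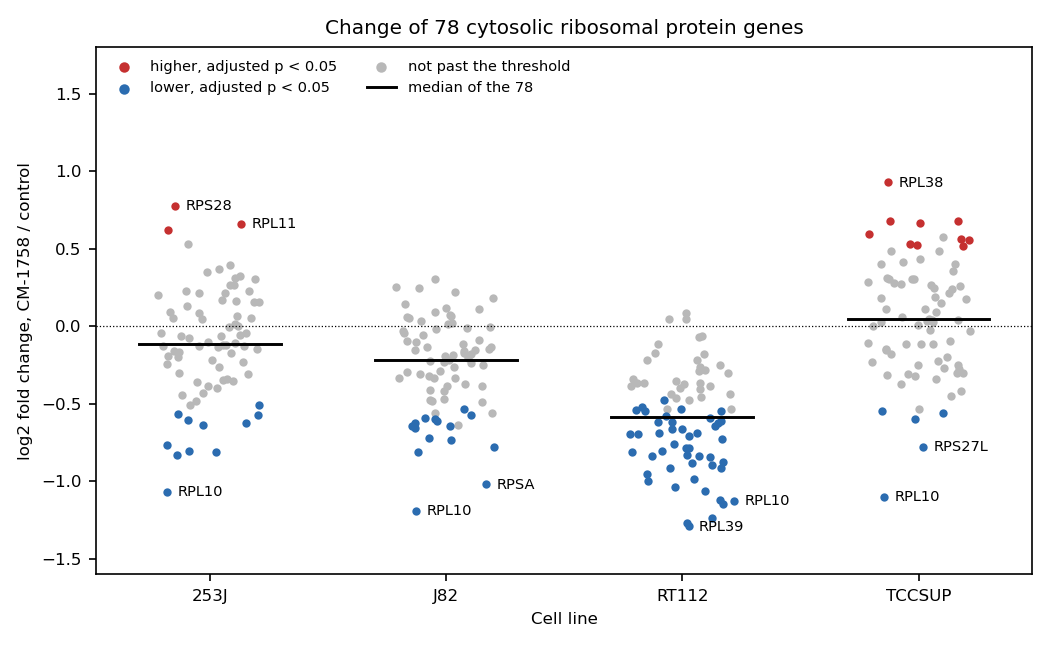
Log2 fold change of CM-1758 over control (vertical axis) of 78 members in each cell line, each point a gene, with the median as a bar. Blue points were lower and red points higher at an adjusted p under 0.05. Most RT112 points lie below 0, RPL10 is near -1.1 in all 4 cell lines, and RPL3L and RPL10L are left out because their few control counts put their values off this scale.

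RT112 showed the broadest fall. In 69 of 80 members both treated libraries were below both control libraries (32.5% of all genes), and in 1 both were above (41.8%). Among the 69 were 29 of 32 of the small subunit and 40 of 48 of the large subunit, and 21 and 25 of these subunits were called. The most lowered was RPL39, a short protein that lines the exit tunnel of the large subunit, with 211 and 183 CPM in the control libraries and 82.6 and 78.3 CPM with CM-1758 (log2 fold change -1.29 ± 0.21, SE, adjusted p = 1.84e-04). RPSA, the small subunit protein also known as the laminin receptor, had 616 and 543 CPM in the control libraries and 249 and 231 CPM with CM-1758 (-1.27 ± 0.23, adjusted p = 3.30e-04). RPLP1, a protein of the acidic stalk that recruits elongation factors, had 157 and 131 CPM in the control libraries and 60.1 and 62.3 CPM with CM-1758 (-1.24 ± 0.18, adjusted p = 7.04e-05). For these 3 genes the treated libraries lay well below the controls and close to each other. RPS23, a protein of the decoding centre, fell from 346 and 301 CPM to 153 and 139 CPM, and RPS12, a small subunit protein, from 256 and 211 CPM to 111 and 103 CPM. Apart from RPL3L the highest values were those of RPL18 (0.08 ± 0.20, adjusted p = 0.785) and RPL11 (0.04 ± 0.22, adjusted p = 0.923), each with overlapping groups. The count of 46 fell to 18 without treated RT112 replicate 2 and to 21 without control replicate 1, while the median stayed between -0.71 and -0.44.

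In J82 the lowered members were led by RPL10, RPSA and RPS4X. RPSA had 598 and 1047 CPM in the control libraries and 367 and 443 CPM with CM-1758 (-1.02 ± 0.22, adjusted p = 0.00193). The control libraries of RPSA differed by more than the treated ones, and still all controls were above. RPS4X, the X-linked form of a small subunit protein, had 282 and 452 CPM in the control libraries and 197 and 221 CPM with CM-1758 (-0.81 ± 0.19, adjusted p = 0.00291), and RPS27, a zinc-binding protein of the small subunit, had 202 and 299 CPM in the control libraries and 132 and 171 CPM with CM-1758 (-0.72 ± 0.21, adjusted p = 0.0105). Over all 80 members, 16 had both treated libraries below both controls (27.9% of all genes) and 1 had both above (34.8%). Apart from RPL3L the highest values were those of RPL38 (0.31 ± 0.21) and RPL34 (0.25 ± 0.21), neither past the threshold. The J82 count turns on single libraries: it was 2 without control replicate 3, 3 without treated replicate 1 and 29 without control replicate 1, and the median moved between -0.49 and 0.092. Without treated replicate 1, 5 members were higher.

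253J was mixed. RPS23 had 647 and 583 CPM in the control libraries and 366 and 327 CPM with CM-1758 (-0.83 ± 0.21, adjusted p = 0.00425). RPS19, a small subunit protein mutated in Diamond-Blackfan anaemia, had 795 and 727 CPM in the control libraries and 503 and 364 CPM with CM-1758 (-0.81 ± 0.20, adjusted p = 0.00356). Higher were RPS28, a small subunit protein near the exit of the messenger RNA, with 69 and 62.1 CPM in the control libraries and 123 and 102 CPM with CM-1758 (0.78 ± 0.18, adjusted p = 0.002), RPL11, with 398 and 345 CPM in the control libraries and 626 and 545 CPM with CM-1758 (0.66 ± 0.22, adjusted p = 0.0227), and RPL13, a large subunit protein, with 523 and 453 CPM in the control libraries and 824 and 672 CPM with CM-1758 (0.62 ± 0.20, adjusted p = 0.0197). In each of these the groups did not overlap. The same held for 28 members lower and 14 higher of the 80 (32.1% and 40.9% of all genes). The 11 lower calls became 5 without control replicate 2 and 4 without treated replicate 3, and the 4 higher ones became 2 without control replicate 3 or without treated replicate 1, when RPL11 and RPL13 were no longer called.

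TCCSUP had the most members raised, 7 of the large and 4 of the small subunit. Among the 7 was RPL10L, which passed the filter on low counts only through treated libraries where it was high. RPL38, a small protein of the large subunit, had 103 and 112 CPM in the control libraries and 207 and 202 CPM with CM-1758 (0.93 ± 0.21, adjusted p = 0.00192). RPS28 had 23.8 and 28.4 CPM in the control libraries and 41 and 42.4 CPM with CM-1758 (0.67 ± 0.18, adjusted p = 0.00598). RPLP2, the partner of RPLP1 in the stalk, had 133 and 154 CPM in the control libraries and 216 and 207 CPM with CM-1758 (0.56 ± 0.20, adjusted p = 0.0284). The treated replicates agreed closely in all 3. RPL34 (0.55 ± 0.21) and RPL37 (0.52 ± 0.19) were raised to a similar extent. Lower were RPL10, RPSA, RPS27A, RPS27L and RPL30. RPS27A, whose protein is made fused to ubiquitin, had 280.5 and 329 CPM in the control libraries and 215 and 197 CPM with CM-1758 (-0.56 ± 0.20, adjusted p = 0.0301). In 36 members both treated libraries were above both controls and in 23 both were below (45.4% and 33.1% of all genes). The 11 higher calls became 34 with total counts as the scaling, 24 with the replicate number as a block, 22 with TCCSUP fitted alone and 21 with at least 10 counts in every library, and the 5 lower calls became 15 with the block or with TCCSUP alone and 2 with total counts or with at least 10 counts. The 11 fell to 2 without control replicate 1, 6 without control replicate 2, 4 without treated replicate 1 and 5 without treated replicate 2, and the 5 lower ones to 2 without either treated library or without control replicate 2 and rose to 8 without either J82 control library.

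Of the 80 members, 2 were called lower in all 4 cell lines, RPL10 and RPSA, compared with 6.01% of all genes tested. RPL10 encodes a large subunit protein needed late in assembly and is on the X chromosome. In 253J it had 555 and 466 CPM in the control libraries and 274 and 212 CPM with CM-1758 (-1.07 ± 0.16, adjusted p = 5.81e-05). In J82 it had 355 and 449.5 CPM in the control libraries and 172 and 179 CPM with CM-1758 (-1.19 ± 0.16, adjusted p = 3.77e-05). In both lines each treated library was below each control library. RT112 had 248 and 222 CPM in the control libraries and 109 and 106 CPM with CM-1758 (-1.13 ± 0.16, adjusted p = 5.51e-05). TCCSUP had 254 and 292 CPM in the control libraries and 126 and 128 CPM with CM-1758 (-1.10 ± 0.16, adjusted p = 4.98e-05). It thus fell by 52.4%, 56.3%, 54.2% and 53.4% in the 4 lines, with an interaction adjusted p of 1, which does not show that the lines respond alike. These calls held in every alternative run. The 18 rows of RPL10 pseudogenes held at most 3.87% of the counts of RPL10 in a library, and with their counts added the log2 ratios were -1.09, -1.19, -1.12 and -1.10.

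RPSA had 647 and 602 CPM in the control libraries and 494 and 351 CPM with CM-1758 in 253J (-0.56 ± 0.22, adjusted p = 0.0465) and 473 and 557 CPM in the control libraries and 341 and 339.7 CPM with CM-1758 in TCCSUP (-0.60 ± 0.22, adjusted p = 0.0348). The 2 groups did not overlap in any of the 4 lines. The calls in 253J and TCCSUP were lost with total counts as the scaling, where the log2 fold changes were -0.29 and -0.29, and in 253J also with the RLE method. The call in 253J held in 10 of 27 alternatives only. It was lost too with no filter on low counts, with at least 10 counts in every library, with pseudogene rows added and on leaving out any 1 of 12 libraries, with adjusted p from 0.00913 to 0.337 over the alternatives. In TCCSUP it held in 22 of 27, and was lost also with at least 10 counts in every library and without control replicate 2 or either treated library, and in J82 and RT112 it held in all 27. Rows of RPSA pseudogenes reached 20.8% of its counts. Called lower in 3 lines were RPL27A, RPL30, RPS4X, RPS9, RPS23, RPS27A and RPS27L, in 2 lines 10 further members, in 1 line 28 and in none 33. Over all genes tested the shares were 7.43% in 3 lines, 9.74% in 2, 17.4% in 1 and 59.4% in none. None of the genes named for 3 lines kept all its calls under TMM, the RLE method and total counts alike. Under all these scalings RPL27A and RPL30 were lower in RT112 only and RPS27L in TCCSUP only. RPS4X and RPS27A were lower in J82 and RT112, and RPS9 and RPS23 in 253J and RT112. No line gave a call in either direction for 21 members (16.7% of all genes), and a negative value in all 4 lines was found for 28 (16.7% of all genes).

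**Figure D3:**
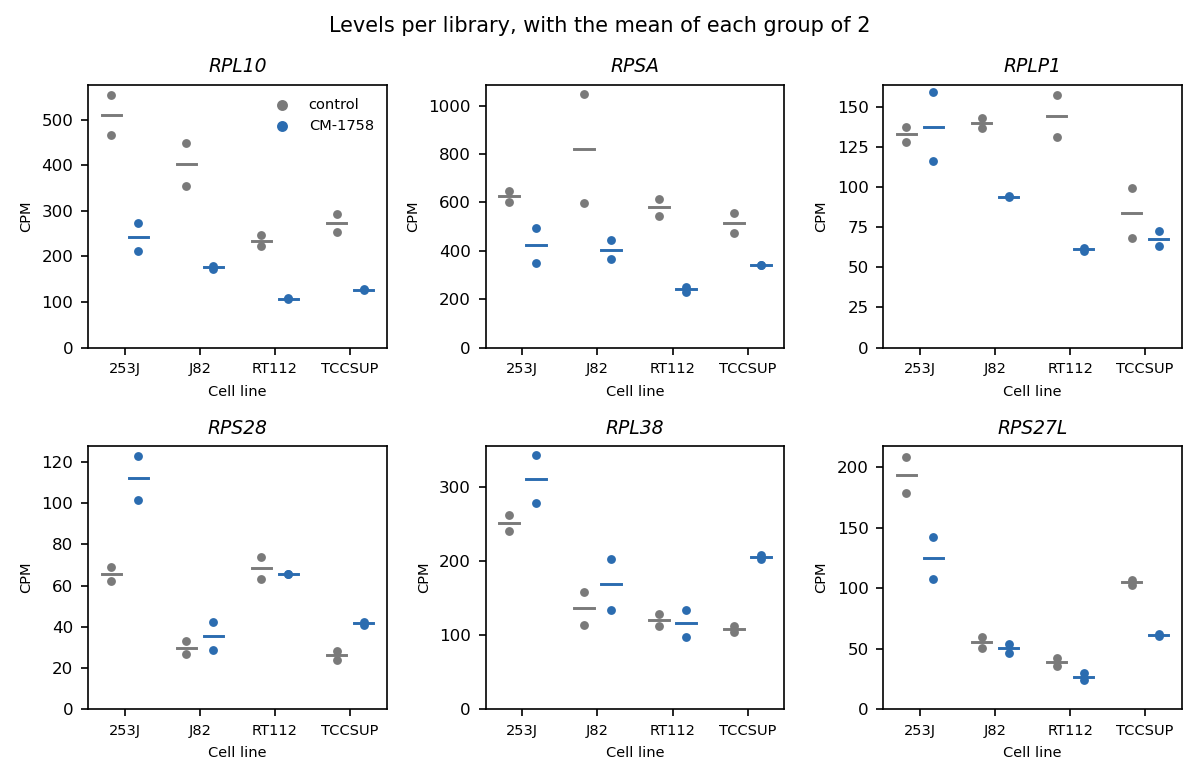
CPM (vertical axes, from 0) of 6 members in each library, by cell line, control in grey and CM-1758 in blue, with a bar at the mean of each group of 2. RPL10 and RPSA are lower with CM-1758 in all 4 cell lines, RPLP1 is lower in J82 and RT112, RPS28 is higher in 253J and TCCSUP, RPL38 is higher in TCCSUP, and RPS27L is lower in 253J, RT112 and TCCSUP.

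The 3 proteins of the acidic stalk did not move alike. RPLP0, the base of the stalk, was lower in RT112 (934 and 795 against 472 and 400.1 CPM; -0.99 ± 0.23, adjusted p = 0.00224) and missed the threshold elsewhere, with -0.23 in 253J, -0.49 in J82 and -0.53 in TCCSUP. RPLP1 was lower in J82 (137 and 143 against 93.6 and 94.6 CPM; -0.57 ± 0.18, adjusted p = 0.0186) and RT112, with 0.05 in 253J and -0.30 in TCCSUP. RPLP2 was higher in TCCSUP and was at 0.06, -0.09 and -0.40 in 253J, J82 and RT112, none past the threshold. RPL5 and RPL11, which with the 5S ribosomal RNA bind MDM2 when assembly is disturbed, also differed. RPL5 was called in no line (from -0.45 in RT112 to 0.02 in 253J), and RPL11 was higher in 253J, with values between 0.04 and 0.26 in the others. RPL22, a large subunit protein that also binds messenger RNAs, was lower in RT112 (-0.62 ± 0.22, adjusted p = 0.0323), a call lost with the RLE method.

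Of the 4 paralogs ending in L, RPL3L and RPL10L rose from very few counts. RPL3L, expressed mainly in skeletal and heart muscle, had 0 and 2 counts in 253J control and 119 and 180 with CM-1758, a ratio of 146 with a counting interval from 40.2 to 1214 (95%, exact). In RT112 it had 0 and 0 against 152 and 113 counts, at least 103-fold higher, and in J82 0 and 0 against 13 and 4, at least 5.31-fold higher, both against a floor of 3 counts over the control group. In TCCSUP it had 3 and 3 against 6 and 11 counts, a ratio of 2.79 (1.05 to 8.65), and the test gave an adjusted p of 0.148. The adjusted p was 5.54e-06 in 253J, 4.68e-06 in RT112 and 0.00615 in J82. RPL10L, an intronless paralog of RPL10 expressed in testis, had 6 and 2 counts in TCCSUP control and 77 and 94 with CM-1758, a ratio of 21.1 (10.5 to 49.6) with an adjusted p of 7.71e-04. In the other cell lines it had at most 2 counts in a library, so a change there was not detectable at this depth. These intervals cover counting error only. Both genes passed the filter on low counts only through treated libraries where they were high. Their adjusted p-values rest on that selection and are no independent support for the rise.

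Both stayed far below their parents. Per kilobase of coding length, RPL3L was at 4.20 ± 0.949 CPM (mean ± SD, n = 2) in treated RT112 against 248 ± 4.93 CPM for RPL3, and at most 1.90% of their sum in any library. RPL10L was at 5.13 ± 0.899 CPM in treated TCCSUP, 2.52% of its sum with RPL10. RPS27L, a paralog of RPS27 that p53 is known to induce, behaved otherwise. It had 103 and 107 CPM in the control libraries and 61.9 and 60.3 CPM with CM-1758 in TCCSUP (-0.78 ± 0.17, adjusted p = 0.00119) and was lower also in 253J (-0.63 ± 0.17) and RT112 (-0.54 ± 0.17). The calls in 253J and RT112 were lost with total counts as the scaling. Per kilobase RPS27L made up 43.3% of the sum with RPS27 in 253J control and 30.7% after treatment, 29.6% and 19.4% in TCCSUP, 16.2% and 14.0% in RT112, and 15.6% and 21.7% in J82, where RPS27 itself fell.

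**Figure D4:**
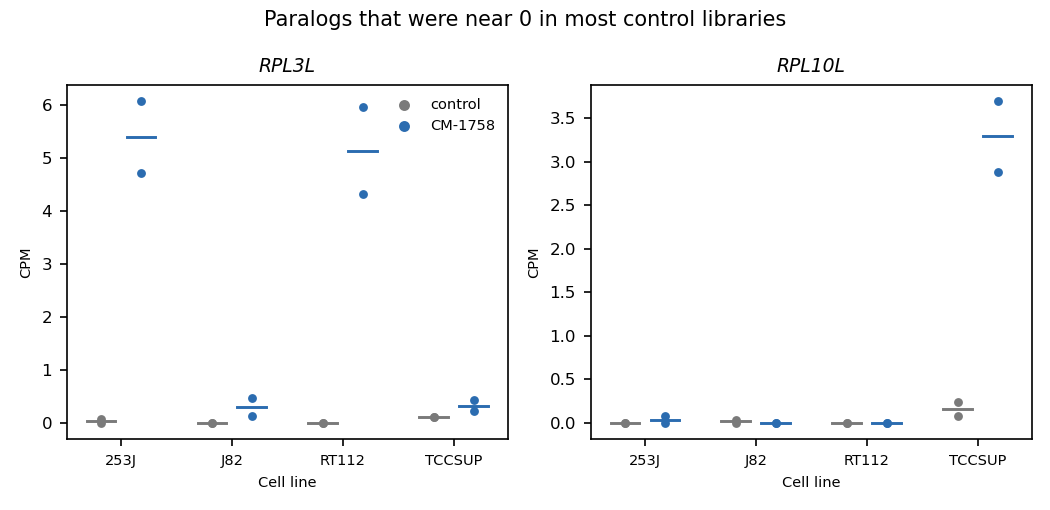
CPM of RPL3L (left) and RPL10L (right) in each library, by cell line, control in grey and CM-1758 in blue, with a bar at the mean of each group of 2. RPL3L is near 0 in every control library and above 4 CPM only in treated 253J and RT112, and RPL10L rises only in treated TCCSUP.

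The change differed between cell lines for 13 of 80 members (interaction F test over the 4 lines, adjusted p under 0.05), compared with 51.9% of all genes tested. RPLP1 had the smallest adjusted p (0.00423), from 0.05 in 253J to -1.24 in RT112. RPS12 (0.0103) ran from -1.12 in RT112 to 0.27 in TCCSUP, RPL13 (0.011) from -0.54 in RT112 to 0.62 in 253J, and RPL37 (0.013) from -0.58 in RT112 to 0.52 in TCCSUP. RT112 thus had the lowest value in all 4, and it also had the lowest median over all 80 members (-0.56). RPL3L (0.00577), fitted from few control counts, went the other way, from 1.45 in TCCSUP to 10.13 in RT112. RPL13 and RPL37 were called in opposite directions in 2 lines, RPL13 in 253J and RT112 and RPL37 in TCCSUP and RT112. Neither pair of opposite calls held under every scaling. The RPL13 call in RT112 was lost with the RLE method, with total counts and with DESeq2. The RPL37 call in RT112 was lost with total counts, and that in TCCSUP on leaving out any TCCSUP library. The count of 13 was 52 with the replicate number as a block, 40 with total counts as the scaling, 24 with at least 10 counts in every library and 21 with DESeq2. Among single libraries those of J82 moved it most, to 36 and 33 without its control replicates 1 and 3 and to 21 and 27 without its treated replicates 1 and 3. It was 6 without RT112 control replicate 1, treated RT112 replicate 2, TCCSUP control replicate 1 or treated TCCSUP replicate 1.

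A change common to the 4 lines, fitted with cell line and treatment as terms, was lower for 29 members and higher for 4 (all genes 20.5% and 32.4%), with a median of -0.19 over the members and 0.22 over all genes. The most lowered were RPL10 (-1.12 ± 0.09, adjusted p = 5.70e-07), RPSA (-0.86 ± 0.14, adjusted p = 2.27e-04) and RPS23 (-0.73 ± 0.14, adjusted p = 6.41e-04). The 4 higher were RPL3L (5.56 ± 0.92), RPL10L (3.48 ± 0.94), RPS28 (0.41 ± 0.13, adjusted p = 0.0191) and RPL38 (0.37 ± 0.15, adjusted p = 0.0474). For RPL3L and RPL10L the fitted size depends on the prior count and is no bound. RPL10L was above the floor of 3 counts in TCCSUP only, so its common change rests on that line and is not shown to be shared. RPL3L and RPS28 were also called as differing between lines, as were RPLP1, RPL39 and RPS29 among the members lower in common. RPL38 was called higher in TCCSUP only (0.93), with -0.06 in RT112. A common change is thus an average over the lines and need not be shared by all of them. RPS28 is uncertain, since rows of its pseudogenes reached 123% of its own counts in a library, and with them added the log2 ratios were 0.82, 0.07, -0.07 and 0.59 in 253J, J82, RT112 and TCCSUP. With total counts as the scaling, 14 members were higher and 12 lower.

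The control libraries alone differed between cell lines for 64 of 80 members (adjusted p under 0.05), while 78.8% of all genes did. Of the 78 with more than a few counts, 48 were highest in 253J, 26 in J82, 1 in TCCSUP and 3 in RT112, and 49 were lowest in TCCSUP, 27 in RT112, 2 in J82 and 0 in 253J. The median ratio of the highest to the lowest line was 2.01, and 40 members were above 2. RPS27L had the smallest adjusted p (2.48e-08), with 208 and 178 CPM in 253J, 103 and 107 in TCCSUP, 50.6 and 59.5 in J82 and 42.2 and 35.5 in RT112. No library of 1 line overlapped with another line, and the highest mean was 4.98 times the lowest. RPS19 was highest in 253J and lowest in TCCSUP (3.99-fold, adjusted p = 3.62e-06), RPL28 highest in J82 and lowest in TCCSUP (3.1-fold, 2.83e-06), RPL27A highest in J82 and lowest in RT112 (3.42-fold, 4.73e-06) and RPS28 highest in RT112 and lowest in TCCSUP (2.63-fold, 3.66e-06).

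Between genes, levels were compared per kilobase of coding length, which leaves out untranslated parts and so favours members with very short coding regions. RPL41, with a coding length of 75 bases, ranked first in all 4 lines, at 8980.2 ± 164 CPM per kilobase in 253J control and 4410.5 ± 374 in RT112 control. RPL39 ranked 2 or 3, at 3091 ± 149.9 and 1288 ± 127. At the other end, above RPL3L, RPL10L and RPL39L, stood RPS16, RPL28 and RPS28 in 253J and TCCSUP. In J82 RPS27L took the place of RPL28, and in RT112 that of RPS28. Rows of RPS16 pseudogenes reached 48.9% of its own counts.

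**Figure D5:**
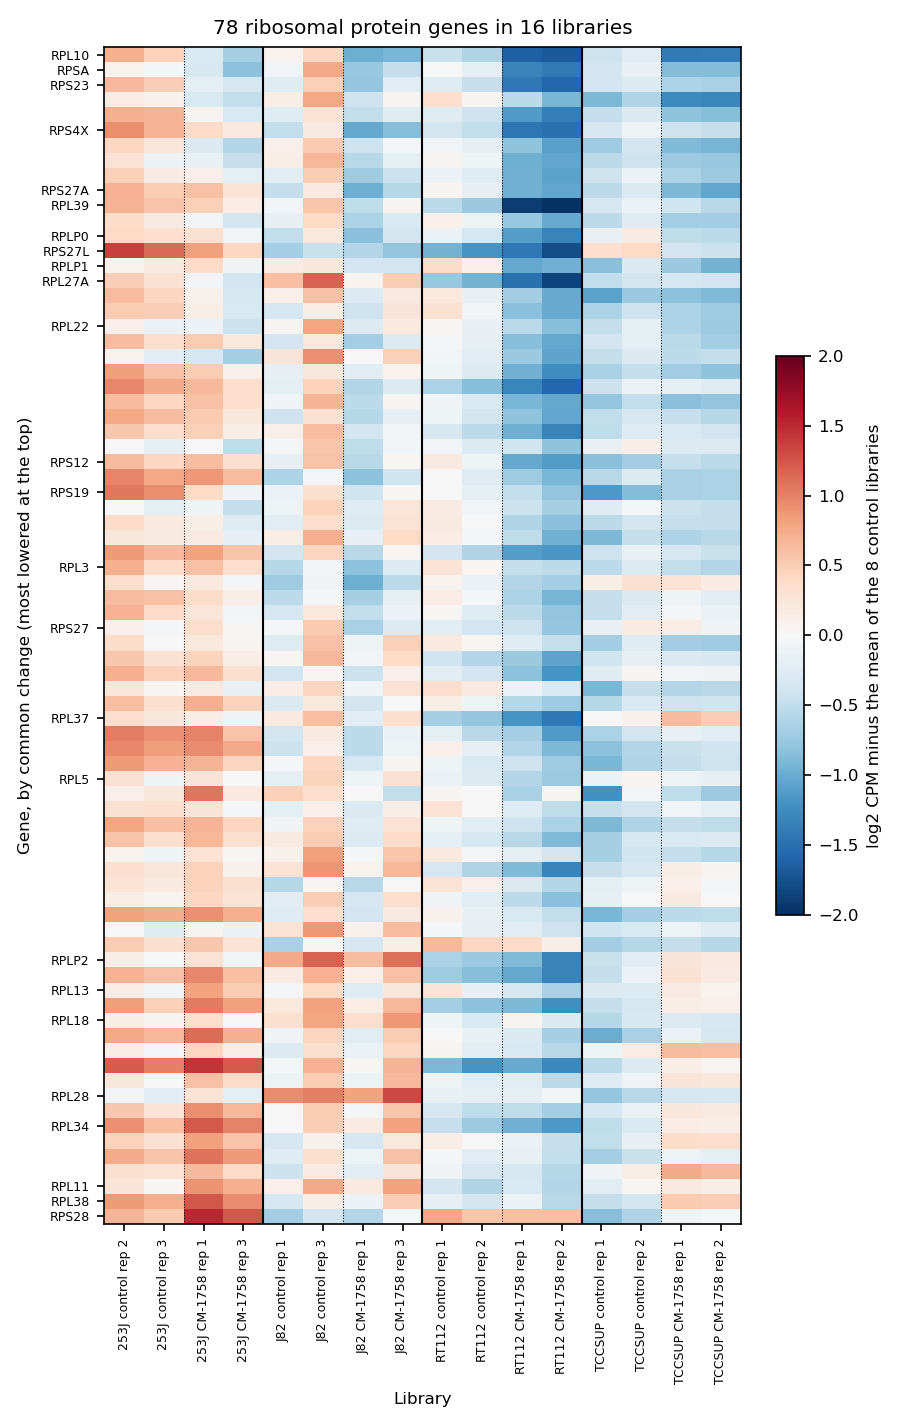
Log2 CPM of 78 members (rows, ordered by their common change) in the 16 libraries (columns), with the members named by rule labelled, each minus the mean of that gene's 8 control libraries, blue for lower and red for higher. The 253J control columns are red over most rows, treated RT112 columns are blue over most rows, and in J82 replicate 3 is redder than replicate 1 in both groups.

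Position of the member in the subunit and the presence of a small nucleolar RNA gene inside it were compared next. In RT112, 21 of 32 small subunit and 25 of 48 large subunit members were lower, with medians of -0.63 and -0.54. In TCCSUP the medians were -0.014 and 0.19. Members that host small nucleolar RNA genes (28 tested) had a median of -0.65 in RT112 and the 52 others -0.54, and -0.32 and -0.17 in J82. These are descriptions, and no test of the splits was made.

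Of the small nucleolar RNA genes inside members, 54 were tested. Of these, 28, 9, 15 and 3 were lower (51.9%, 16.7%, 27.8% and 5.56%, compared with 22.4%, 18.5%, 20.2% and 22.1% of all genes) and 0, 0, 0 and 1 higher in 253J, J82, RT112 and TCCSUP, with median log2 fold changes of -1.03, -0.64, -0.74 and -0.19. In 253J, 8 of the 28 had a host that was also called lower, in RT112 13 of 15, in J82 4 of 9 and in TCCSUP 1 of 3. Of the 28 tested host members themselves, 4, 6, 17 and 3 were called lower in 253J, J82, RT112 and TCCSUP. In RT112 most hosts were thus lower whether or not their small RNA was. The value of the small RNA was below that of its host for 50, 41, 33 and 34 of the 54 in the same order. Such short RNAs are recovered in part only in libraries of this kind.

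Among ribosomal proteins outside the name rule, FAU, whose small subunit protein is made fused to a ubiquitin-like protein, was lower in 253J (-0.50 ± 0.19), J82 (-0.69 ± 0.19) and RT112 (-0.76 ± 0.19), as was RACK1, the small subunit scaffold (from -0.67 to -0.49). RPL22L1, the paralog of RPL22, was lower in 253J (-0.73) and RT112 (-0.66) and higher in TCCSUP (0.66), and its change differed between lines (interaction adjusted p = 9.26e-04). RPL26L1 was higher in J82, RT112 and TCCSUP (0.96, 0.72 and 0.62). Of the 7 genes in all, 3, 3, 4 and 0 were lower and 0, 1, 1 and 3 higher in 253J, J82, RT112 and TCCSUP. The shares of all genes to set beside these and the following lists were 22.4%, 18.5%, 20.2% and 22.1% lower and 28.8%, 24%, 27.4% and 32% higher, in that order.

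Of 32 translation factors and other genes known for TOP messenger RNAs, 19, 15, 22 and 12 were lower (59.4%, 46.9%, 68.8% and 37.5%) and 3, 0, 0 and 4 higher in the same order, with medians of -0.59, -0.45, -0.81 and -0.21. EEF1B2, which reloads elongation factor EEF1A with GTP, was lower in all 4 lines (-2.10, -2.30, -2.30 and -1.18), and SNHG29, a small nucleolar RNA host, likewise (from -1.70 to -0.91). TPT1, a translationally controlled protein, was higher in 253J (1.49 ± 0.22) and not called elsewhere.

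Of 57 ribosome assembly factors, 26, 24, 36 and 11 were lower (45.6%, 42.1%, 63.2% and 19.3%) and 9, 0, 1 and 14 higher, again from 253J to TCCSUP. DKC1, the pseudouridine synthase of ribosomal RNA, was lower in all 4 lines (from -1.65 in RT112 to -0.73 in TCCSUP), as was UTP20, a factor of small subunit processing (from -1.62 to -0.84). NOC2L, an assembly factor that also binds p53, was higher in 253J (0.94) and TCCSUP (0.67). Of 20 genes of RNA polymerase I and its factors, 5, 10, 10 and 3 were lower (25%, 50%, 50% and 15%) and 7, 1, 1 and 7 higher. TAF1D (-1.68, -1.41, -1.58 and -1.09) and UBTF (-1.44, -1.36, -0.99 and -1.69), both part of the machinery at the promoter of ribosomal RNA genes, were lower in all 4 lines.

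The mitochondrial ribosome gave 20, 28, 41 and 23 of 78 genes lower (25.6%, 35.9%, 52.6% and 29.5%, compared with 22.4%, 18.5%, 20.2% and 22.1% of all genes) and 15, 5, 4 and 6 higher, so that in 253J the share was near that of all genes. MRPS7 and MRPL11 were lower in all 4 lines (common change -1.34 ± 0.11 and -1.25 ± 0.09), while MRPS31 was higher in all 4 (0.84 ± 0.12).

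Of 17 regulators of ribosomal protein synthesis, 7, 6, 4 and 8 were lower (41.2%, 35.3%, 23.5% and 47.1%) and 6, 2, 2 and 3 higher. MYC, a transcription factor of ribosome genes, was lower in 253J (-1.08 ± 0.17) and RT112 (-1.53 ± 0.18) and not called in J82 (0.37) or TCCSUP (-0.41). MLST8, a subunit of mTOR complexes, was lower in all 4 lines (common change -1.49 ± 0.13), and MAF1, a repressor of RNA polymerase III, as well (-1.02 ± 0.15). EIF4EBP2, a repressor of translation initiation, was higher in 253J, J82 and RT112 (1.92, 0.90 and 0.49). Of 20 p53 target genes, 10, 4, 5 and 5 were lower (50%, 20%, 25% and 25%) and 7, 7, 9 and 10 higher (35%, 35%, 45% and 50%). CDKN1A, the cell cycle inhibitor, was higher in 253J (1.29), J82 (3.41) and TCCSUP (2.21), with 0.26 in RT112, and PLK3 was higher and TP53I3 lower in all 4 (common change 1.91 ± 0.25 and -1.54 ± 0.17).

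The table also held 1448 rows of ribosomal protein pseudogenes, of which 1041 had counts and 276 were tested. They held 0.0533 to 0.107% of all counts. Of those tested, 17, 13, 24 and 8 were lower (6.16%, 4.71%, 8.7% and 2.9%) and 29, 8, 30 and 29 higher in 253J, J82, RT112 and TCCSUP, with medians of -0.008, -0.035, 0.17 and 0.27. Reads that fit a member and its processed copies could be assigned to either row, and the rows RPL17-C18orf32, RPL36A-HNRNPH2 and RPS10-NUDT3, read-through transcripts, share exons with a member. In 11 members the pseudogene rows exceeded 10% of the member in some library, and adding them to their members left 44 lower in RT112, 14 in J82, 10 in 253J and 4 in TCCSUP.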

How the data were processed

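RNA was sequenced from 4 bladder cancer cell lines treated with CM-1758 or vehicle, 2 libraries per group. The authors deposited whole-number counts per gene symbol, without normalization. The submitters' processing notes name HISAT2, StringTie and GRCh37, and the counting tool and its use of strand are not given in the sources used here. Every column was matched to a sample by its labels, and the groups come from the labels.

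The members, the gene lists and the tests were chosen with earlier results of these data known. Low counts were removed with filterByExpr (8 groups), libraries were scaled by TMM, and the fit was the quasi-likelihood test of edgeR 4.0.16 (R 4.3.3) over all 16 libraries, with 1 contrast per cell line and Benjamini-Hochberg adjustment over the 21297 genes tested. The interaction was an F test of the 4 contrasts against each other, the common change came from cell line plus treatment, and control levels were compared by an F test over the 4 control groups. A gene was called at an adjusted p under 0.05. SE is the log2 fold change over the square root of F. CPM use TMM-scaled totals. Since groups hold 2 libraries, the estimate of spread is shared across genes.

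Ratios of few counts have exact 95% intervals, which cover counting error only, and the floor was 3 counts over a group. Coding lengths and the small nucleolar RNA genes inside members are from GENCODE, start sites from RefSeq. The members named are those with the 3 largest and 3 smallest changes per cell line and for the common change, the 5 smallest interaction and control-level p-values, the paralogs ending in L with their parents, RPLP0, RPLP1, RPLP2, RPSA, RPL5, RPL11, RPL22, RPS27A and RPS4X. From each list, 2 genes at either end of the common change were eligible, as were FAU, RACK1, RPL22L1, MYC and CDKN1A. Other genes were named after their values were seen. Scripts were tested on simulated counts. The alternatives were other scalings and filters, DESeq2 1.42.0, each cell line alone, the replicate block, thinned counts, other thresholds and leaving out each library. Adding pseudogene rows to their members was chosen after seeing the data. A few genes counted in the totals are not reported here by name.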

Additional observations from a re-analysis of the deposited data

Results flagged for a closer look

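The change with CM-1758 differed between cell lines for 13 members by the interaction test of edgeR, and values are log2 fold changes in 253J, J82, RT112 and TCCSUP, in that order. RPLP1 (adjusted p = 0.00423) had 0.05, -0.57, -1.24 and -0.30. RPL3L (adjusted p = 0.00577) had 7.01, 6.04, 10.13 and 1.45, fitted from control groups of 0 to 6 counts. It passed the filter on low counts through treated libraries only. RPS12 (adjusted p = 0.0103) had -0.05, -0.47, -1.12 and 0.27, RPL13 (adjusted p = 0.011) had 0.62, -0.19, -0.54 and 0.40, and RPL37 (adjusted p = 0.013) had -0.25, -0.33, -0.58 and 0.52. RPS19 (adjusted p = 0.016) differed in that its lowest value was in 253J, with -0.81, -0.29, -0.55 and 0.36.

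Of the others, RPL37A (adjusted p = 0.024) had -0.34, -0.15, -0.84 and 0.24, RPL39 (adjusted p = 0.0258) had -0.30, -0.48, -1.29 and -0.25, and RPS29 (adjusted p = 0.0258) had -0.57, 0.05, -1.07 and -0.15. RPS28 (adjusted p = 0.0332) had 0.78, 0.24, -0.07 and 0.67, RPL35A (adjusted p = 0.0406) had -0.05, -0.15, -0.71 and 0.28, and RPL34 (adjusted p = 0.0425) had 0.35, 0.25, -0.46 and 0.55. Over the 12 members given, RT112 held the lowest value in 10, the exceptions being RPL3L and RPS19. In TCCSUP the value was above 0 for 9 of them. Over all 80 tested members the value was below 0 for 48, 63, 75 and 32 in 253J, J82, RT112 and TCCSUP. RT112 also had the lowest median over all members (-0.56), so low values there were not particular to these 12.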

How the results depend on the processing

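Of 47 calls of named members in a cell line, 21 were made in the same direction under every alternative run, among them all 4 of RPL10. With total counts as the scaling, 253J had 15 members higher and 5 lower (median 0.17), J82 7 lower, TCCSUP 34 higher and 2 lower (median 0.37), 40 changes differed between lines, and 14 common changes were higher and 12 lower. With at least 10 counts in every library, which removes RPL3L and RPL10L, 0 were higher in J82 and 0 in RT112, TCCSUP had 21 higher and 2 lower, 24 differed between lines and 17 were lower in common. Each cell line fitted alone gave 0 higher and 3 lower in J82 and 22 higher and 15 lower in TCCSUP, and DESeq2 gave 21 that differed between lines. At an adjusted p under 0.01, 2 were higher and 6 lower in 253J, 4 lower in J82, 26 lower in RT112, and 3 higher and 2 lower in TCCSUP. A log2 fold change beyond 1 with an adjusted p under 0.01 gave 1, 2, 9 and 1 lower in 253J, J82, RT112 and TCCSUP. Without the 7 small noncoding RNA genes the members took 3.91% in control and 4.57% in treated 253J, 2.86% and 2.08% in RT112 and 2.27% and 3.18% in TCCSUP. The cause of these moves was not tested.

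The replicate number as a block gave 2 higher and 28 lower in J82, 24 higher and 15 lower in TCCSUP, 52 that differed between lines and 1 higher in common. The labels give same-numbered libraries only a number in common. The correlation of their deviations over all genes was 0.22 in J82, 0.053 in 253J, 0.017 in TCCSUP and 0.043 in RT112, and over the members 0.55, 0.17, -0.42 and 0.24 in that order, and 253J had 1 shared number.

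Leaving out each library in turn, which leaves a lone sample assumed to vary like the other groups, gave 2 to 4 higher and 4 to 14 lower in 253J, 1 to 5 higher and 2 to 29 lower in J82, 18 to 49 lower in RT112, 2 to 13 higher and 2 to 8 lower in TCCSUP, 6 to 36 that differed between lines, and 2 to 6 higher in common. Depth limited what could be said of RPL3L, RPL10L and RPL39L.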
